A study of Mus musculus with 48 samples.

Results

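The genes described here encode RNA polymerase II (Pol II), the factors that hold it paused near promoters and the factors that carry it through gene bodies. They are 37 genes chosen by name: the 12 subunit genes Polr2a to Polr2l, Polr2m (which encodes Gdown1), DSIF and Spt6 (Supt4a, Supt5, Supt6), NELF (Nelfa, Nelfb, Nelfcd, Nelfe), P-TEFb and its 7SK regulators (Cdk9, Ccnt1, Ccnt2, Hexim1, Larp7), the super elongation complex (Ell, Ell2, Aff1, Aff4), PAF (Paf1, Ctr9, Cdc73, Leo1, Rtf1) and the CDK12 and CDK13 kinases with cyclin K (Cdk12, Cdk13, Ccnk). All 37 had a row among the 55376 genes of the count table. Nascent RNA had been labelled with 4-thiouridine (500 µM, 5 min) in TCF2.2, a C57BL/6 mouse embryonic stem cell line grown in 2i medium, and pulled down. A count is thus meant to stand for RNA made within minutes and not for the stock of mRNA. How much unlabelled mRNA was carried along was not measured here. The 4 groups held 2 libraries each. BRM014, a compound that inhibits the ATPases of SWI/SNF remodellers (BRG1 and BRM), was given at 10 µM for 3 h, and its control was DMSO for 3 h. A lentiviral shRNA against Chd4, which encodes the remodelling ATPase of NuRD, was set against a scrambled shRNA, both after 24 h in 1.5 µg/mL puromycin. How many shRNA sequences were used is not given in the sources used here. The series title asks how the effect of losing SWI/SNF or NuRD on expression goes with the amount of Pol II at promoters, and the genes of Pol II itself and of its regulators are looked at here for both perturbations.

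As background, Pol II starts at a promoter and, at most genes of an animal cell, halts a short way downstream, where DSIF and NELF hold it. P-TEFb, a pair of the kinase CDK9 and a cyclin T, releases it by phosphorylating DSIF, NELF and the tail of the largest subunit; an inactive store of P-TEFb is kept in a particle with 7SK RNA, HEXIM1 and LARP7. The super elongation complex brings active P-TEFb to genes, and Spt6, PAF and the CDK12 and CDK13 kinases travel with the released enzyme. In stem cells kept in 2i medium, pausing has been studied as a step at which genes are held back or let go.

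The libraries held between 6982354 and 17128981 gene counts. Olfactory and vomeronasal receptor genes, which these cells do not need, served as a measure of background, and had 6.78 and 7.21 counts per kb of exon in the libraries labelled Chd4 shRNA against 1.32 and 1.83 in the scrambled ones, and 1.66 and 2.64 with BRM014 against 2.63 and 2.66 with DMSO. Counts of Chd4 itself were 730 and 760 under the Chd4 shRNA label and 806 and 618 under the scrambled one. Relative to other expressed genes it was higher with the Chd4 shRNA, by 0.57 ± 0.16 (log2, SE, edgeR adjusted p = 0.0053), so nascent Chd4 RNA did not show a knockdown, and these libraries are called by their label throughout. An shRNA acts on mature mRNA, which was not measured. Smarca4, the gene of BRG1, differed by 0.13 ± 0.16 (log2, SE, edgeR adjusted p = 0.72) between BRM014 and DMSO. Of 8 embryonic stem cell markers, 8 lay at least 10-fold above background with BRM014, DMSO and the scrambled shRNA. In the libraries labelled Chd4 shRNA 7 did, and the summed scaled count of the 8 was 1833 and 1771 there against 2791 and 2936 in the scrambled ones. Dppa5a made up most of that sum (1320 and 1211 against 1829 and 1951). Single markers differed, with Nanog at 62.7 and 64.9 against 179 and 198, and Tfcp2l1 at 86.6 and 103 against 136 and 105. None of 17 markers of fibroblasts, endoderm, trophoblast, mesoderm or neural cells reached 10-fold in any group, and in the libraries labelled Chd4 shRNA they lay between 0.60 and 2.03 times background. With the higher background their scaled sums were higher there too, for fibroblast markers 63.1 and 77.1 against 8.32 and 11.3, and no marker was at 0 in any library. The part of these differences in the results below was not tested, apart from the subtraction of background given with them.

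Levels between genes were compared as scaled counts (CPM of the expressed genes, with TMM factors) per kb of exon, averaged over the 8 libraries; background is included in them. Subunit genes held ranks 1 to 6, and Supt4a held rank 7. Polr2k, which encodes the smallest zinc-binding subunit, led with 109, followed by Polr2g (74.9), Polr2i (55.0), Polr2f (46.2) and Polr2e (41.7). Polr2k ranged from 91.0 to 140.1 over the libraries and lay above the whole range of Polr2g, while the ranges of Polr2g, Polr2i, Polr2f and Polr2e overlapped in that order. Polr2a, which encodes the catalytic subunit with its long repeated tail, was at rank 13, with 14.8. Polr2b, the other large subunit of the active site, was at rank 16, with 7.68. Supt4a of DSIF was at 33.7 and its partner Supt5 at 6.94. Cdk9 was at 5.48. Both control groups differed for some genes, with 113 and 88.4 scaled counts of Polr2a in the scrambled libraries and 47.9 and 64.9 in the DMSO ones, so each treatment was read against its own control. The lowest levels were those of Ell2 (1.45), Cdc73 (1.52), Ctr9 (1.68) and Cdk13 (1.72), whose library ranges overlap. Exon length, by which the counts are divided, ran from 624 bases for Polr2k to 17613 for Cdc73, with 7067 for Polr2a. Its part in this order was not tested.

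**Figure D1:**
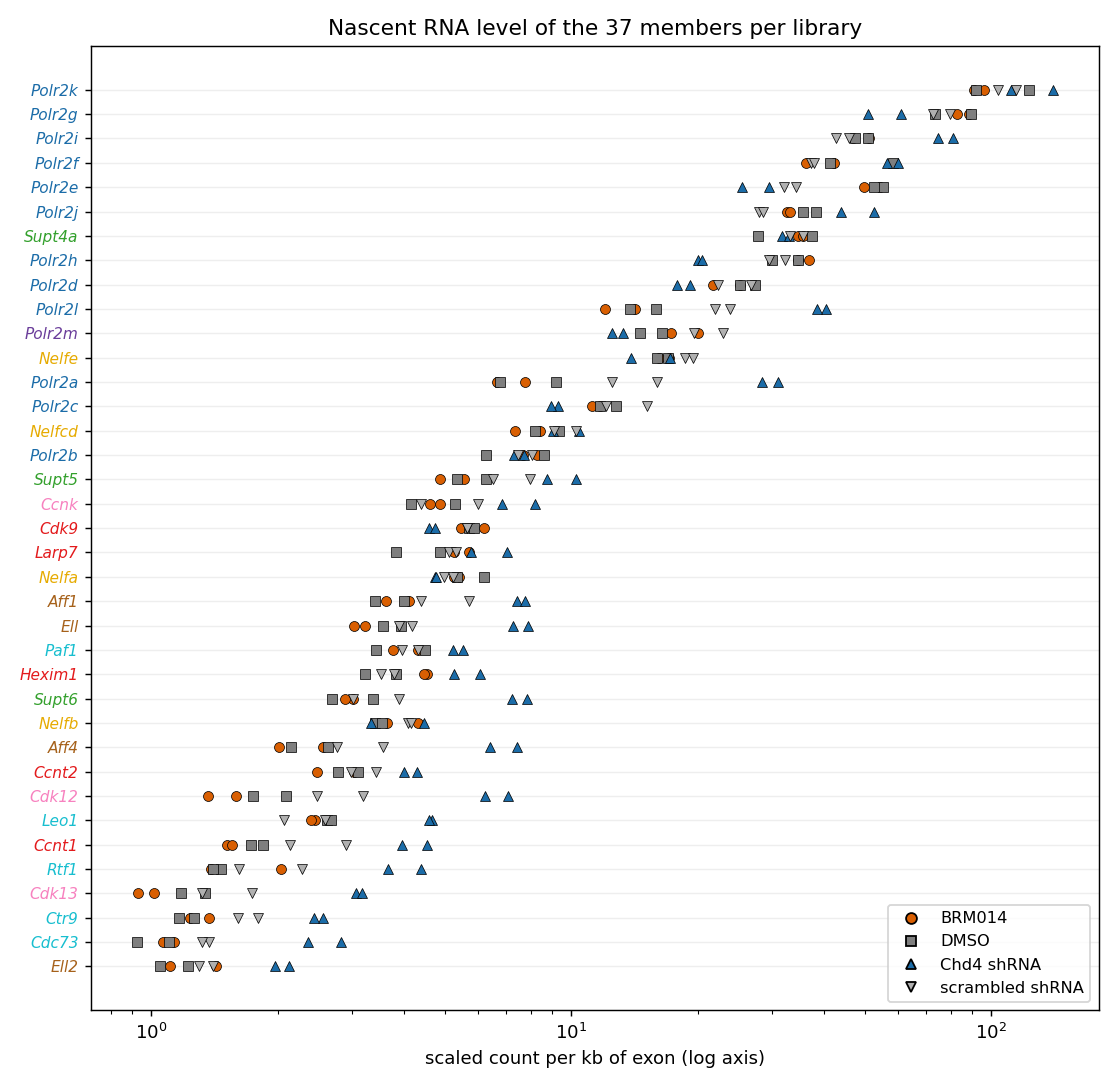
Scaled count per kb of exon (log axis) of the 37 genes in each of the 8 libraries, genes sorted by their mean and named in the colour of their group, with circles for BRM014, squares for DMSO, upward triangles for Chd4 shRNA and downward triangles for scrambled shRNA. The genes run from Polr2k at 109 to Ell2 at 1.45, and the triangles of Chd4 shRNA stand apart to the right for Polr2a and for most genes with low levels.

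Tests covered the 8272 genes taken as expressed, those whose average over the libraries exceeded background by 10-fold or more, and each change is relative to them. Of the 37 genes, 29 passed. The other 8 were Ccnt1, Ell2, Ctr9, Cdc73, Leo1, Rtf1, Cdk12 and Cdk13. Just inside the filter lay Ccnt2 (10.8-fold) and Aff4 (10.8-fold), and just outside it Leo1 (9.72-fold) and Cdk12 (9-fold). Background alone would give a median of 12.1% of the counts of the 29 genes in the libraries labelled Chd4 shRNA and 1.78% in the scrambled ones, with 35.3% at most, for Nelfb in 1 of the libraries labelled Chd4 shRNA.

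After 3 h of BRM014, none of the 29 tested genes passed the test. Of the 29, 13 were above DMSO and 16 below, from -0.34 (log2, Polr2f) to 0.34 (Hexim1), with a median of -0.04 against 0.01 over all expressed genes. SEs lay between 0.12 (Cdk9) and 0.16 (Polr2a). By edgeR's quasi-likelihood test at an adjusted p under 0.05, 0 of 29 were called in either direction, where 3.12% of all expressed genes were called higher and 4.63% lower. At an unadjusted p under 0.05 there were 3 of 29, where 21.3% of all expressed genes were, and DESeq2 called 0 of 29, where it called 3.59% of all.

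The 3 genes, fewer than that share would give, were Polr2f, which encodes a small subunit shared by Pol I, II and III, and both named regulators of the 7SK particle. Polr2f had 93.8 and 110 scaled counts with BRM014 and 152 and 107 with DMSO, a log2 fold change of -0.34 ± 0.15 (SE, edgeR adjusted p = 0.19). The groups overlap, since 1 DMSO library lies between the BRM014 ones. Hexim1, the inhibitor of P-TEFb, had 15.8 and 15.6 with BRM014 and 11.3 and 13.3 with DMSO (0.34 ± 0.13, adjusted p = 0.12). Larp7, which binds and guards 7SK RNA, had 12.5 and 13.5 with BRM014 and 9.07 and 11.5 with DMSO (0.33 ± 0.14, adjusted p = 0.17). Mepce and Hexim2, the 7SK genes of a wider list given below, did not share this rise and were named after being seen. Mepce had 14.9 and 12.6 with BRM014 and 13.9 and 15.0 with DMSO. Hexim2 had 5.36 and 4.52 with BRM014 and 4.91 and 5.20 with DMSO. Both BRM014 libraries lay above both DMSO libraries for Hexim1 and Larp7, as for 5 of the 29 and for 25.1% of all expressed genes; both lay below for 3 of the 29 and 23.4% of all. Without DMSO library r2, the 3 genes passed edgeR's test, Polr2f at -0.57 (adjusted p = 0.0041), Hexim1 at 0.47 (0.020) and Larp7 at 0.52 (0.015), but calls over all expressed genes then came to 16.8%. Without DMSO library r1 none of the 3 passed (adjusted p 0.76, 0.39 and 0.56). Ell gave -0.26 ± 0.14 (adjusted p = 0.29), Polr2m 0.26 ± 0.13 (0.26) and Polr2k -0.20 ± 0.15 (0.49), and the other 23 lay within 0.19 of no change. Polr2a gave -0.15 ± 0.16, with 54.8 and 47.1 scaled counts with BRM014 and 47.9 and 64.9 with DMSO. Hexim1, Larp7 and Polr2f, at more than 2 SE from 0, did not pass in this comparison, so changes of that size may be missed with 2 libraries a group.

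**Figure D2:**
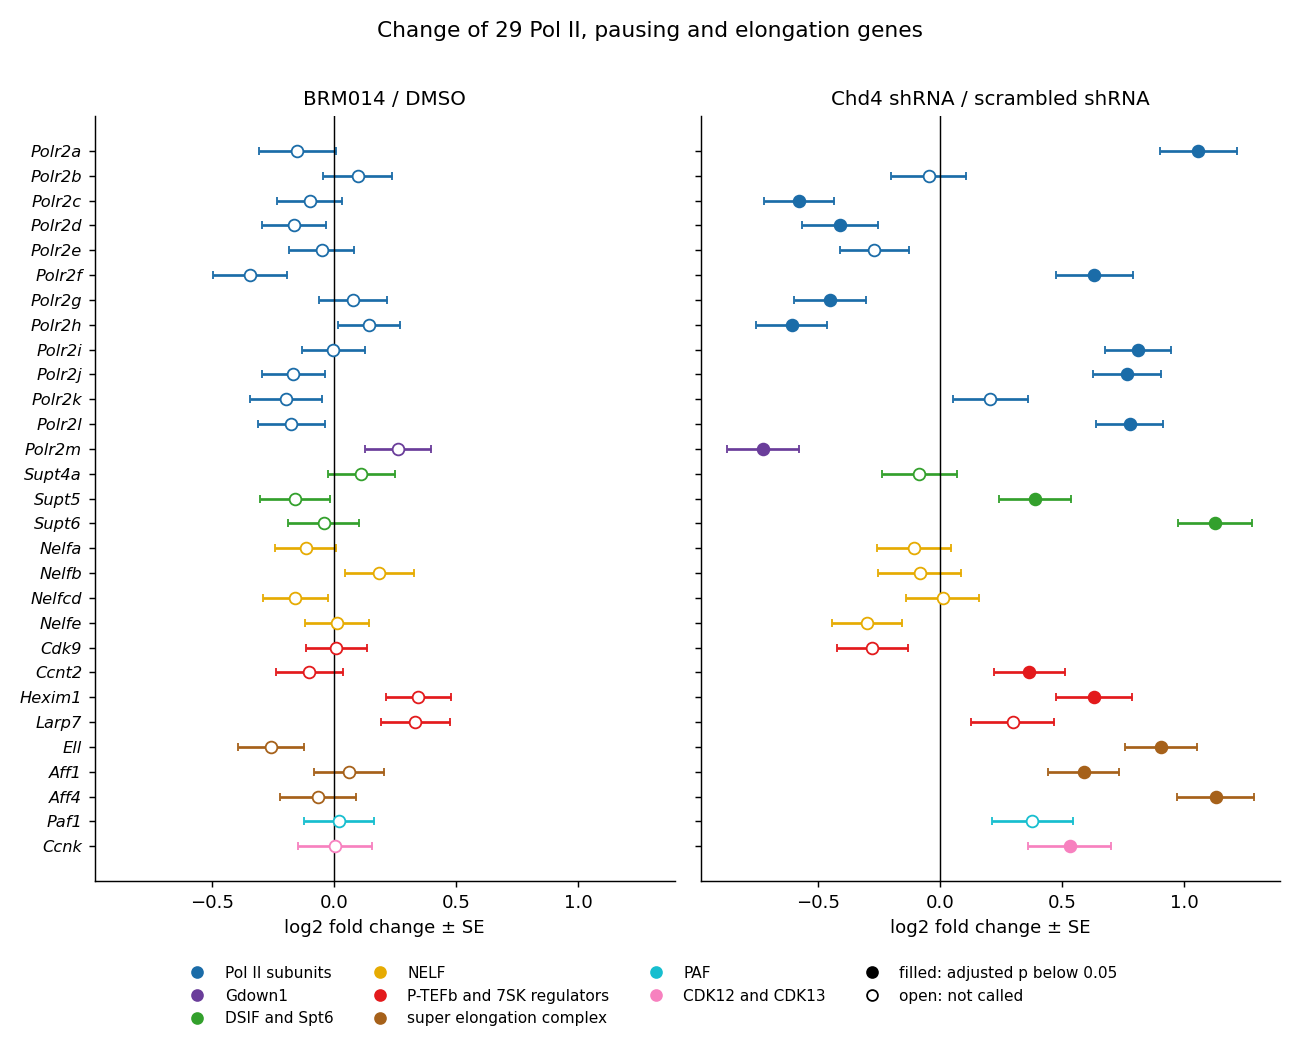
Log2 fold change ± SE of the 29 expressed genes, BRM014 over DMSO on the left and Chd4 shRNA over scrambled shRNA on the right (2 libraries a group), coloured by complex, with filled points for an adjusted p under 0.05. No point is filled on the left, while on the right 13 are filled above 0 and 5 below.

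In the libraries labelled Chd4 shRNA, 18 of the 29 genes passed the test against the scrambled shRNA. Higher were 13: the catalytic subunit gene Polr2a (2.08-fold) with Polr2f, Polr2i, Polr2j and Polr2l, then Supt5, Supt6, Ccnt2, Hexim1, Ell, Aff1, Aff4 and Ccnk. Lower were 5: Polr2c, Polr2d, Polr2g, Polr2h and Polr2m. By edgeR at an adjusted p under 0.05, 19.4% of all expressed genes were called higher and 20.5% lower, so calls were common in this comparison. The median of the 29 was 0.30 (log2) and that of all expressed genes -0.01. By group, 5 of 12 subunit genes were higher and 4 lower (median 0.08), 2 of 3 DSIF and Spt6 genes higher (0.39), 0 of 4 NELF genes called (-0.09), 2 of 4 tested P-TEFb and 7SK genes higher (0.33), and 3 of 3 tested super elongation genes higher (0.90). These medians describe short lists, and no test between lists was run.

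Which genes were called depended on the libraries and on the scale. Without scrambled library r3 the count fell to 11 of 29, with 26.7% of all expressed genes called, and without any other single library it was between 12 and 19. Scaled by the ERCC RNAs with TMM, 0 of the 29 were called by edgeR (4 at an unadjusted p under 0.05, Polr2a, Supt6, Ell and Aff4), against 0.762% of all expressed genes called and 7.42% at an unadjusted p, and the median of all expressed genes stood at 0.19 (log2). On plain ERCC sums that median stood at 0.59, and 16 were called, all of them higher, as were nearly all calls on that scale (34.3% of all expressed genes higher and 0.75% lower). The values below are changes relative to the typical expressed gene, not per cell.

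Promoter sequences are shown for the 3 genes with the largest rises and the 2 lowest values among the called genes, since these carry the contrast within the list. The 250 bases before the annotated start are given 5′ to 3′ on the strand of the gene, from RefSeq (GRCm38.p6). They lie at chr11:69758634-69758883 (minus strand, Polr2a), chr11:78245704-78245953 (minus strand, Supt6), chr11:53350517-53350766 (plus strand, Aff4), chr9:71485984-71486233 (minus strand, Polr2m) and chr16:20717576-20717825 (plus strand, Polr2h). For Polr2m and Polr2h the table lists 2 starts, of which 1 is shown. The counted row of Supt6 runs to chr11:78245987, so its whole window lies within that row, and bases upstream of the row were not searched. The counted row of Polr2h starts at chr16:20717665, inside its window. Capitals mark matches to 5 short motifs on either strand.
Polr2a: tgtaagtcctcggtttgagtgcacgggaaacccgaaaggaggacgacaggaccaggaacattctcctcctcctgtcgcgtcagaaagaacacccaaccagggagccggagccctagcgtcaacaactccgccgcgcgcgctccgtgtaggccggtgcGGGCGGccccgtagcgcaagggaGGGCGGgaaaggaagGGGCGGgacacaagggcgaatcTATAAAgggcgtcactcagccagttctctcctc
Supt6: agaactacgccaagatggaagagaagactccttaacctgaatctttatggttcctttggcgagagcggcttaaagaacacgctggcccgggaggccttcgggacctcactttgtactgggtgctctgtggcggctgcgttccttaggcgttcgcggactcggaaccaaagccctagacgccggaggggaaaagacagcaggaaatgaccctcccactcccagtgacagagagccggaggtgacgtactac
Aff4: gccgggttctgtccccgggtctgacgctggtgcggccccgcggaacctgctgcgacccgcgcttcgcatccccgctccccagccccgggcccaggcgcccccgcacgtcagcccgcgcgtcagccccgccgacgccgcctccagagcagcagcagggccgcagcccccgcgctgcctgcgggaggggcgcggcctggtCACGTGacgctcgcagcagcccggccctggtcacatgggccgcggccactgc
Polr2m: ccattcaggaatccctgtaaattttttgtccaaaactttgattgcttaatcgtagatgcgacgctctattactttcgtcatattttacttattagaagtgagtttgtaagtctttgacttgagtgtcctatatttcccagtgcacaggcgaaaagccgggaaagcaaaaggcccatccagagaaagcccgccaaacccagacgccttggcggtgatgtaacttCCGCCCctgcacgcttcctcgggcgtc
Polr2h: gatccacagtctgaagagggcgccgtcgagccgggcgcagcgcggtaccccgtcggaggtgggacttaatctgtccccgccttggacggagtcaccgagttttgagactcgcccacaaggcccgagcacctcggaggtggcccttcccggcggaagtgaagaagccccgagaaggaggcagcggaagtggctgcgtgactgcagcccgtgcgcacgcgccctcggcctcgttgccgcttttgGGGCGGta
The motifs searched were the GC box GGGCGG and then, in turn, the CCAAT box, the E-box CACGTG, the TATA motif TATAAA and the ETS motif CCGGAAG, in windows from 250 bases before to 50 after the start. No motif overlapped another of a different kind in the 5 sequences shown. Polr2a held 3 GC boxes and 1 TATAAA, which began 33 bases before the start, and the window of Supt6 held none of the 5 motifs. Aff4 held 1 E-box, Polr2m 1 GC box on the opposite strand, and Polr2h 1 GC box, with 1 E-box after the start that is not shown. Of the 37 genes, 31 had a promoter in the table, and Ctr9, Nelfcd, Nelfe, Polr2d, Polr2g and Polr2k had none. The GC box occurred in 27 of the 31 (87.1%), in 66.9% of the promoters of expressed genes and in 35.9% of all 27025 genes with a promoter there. TATAAA occurred in 3 of 31 (9.7%; 6.8% of expressed and 14.2% of all), in Polr2a, Polr2c and Nelfb. The shares for the CCAAT box were 32.3%, 42.5% and 37.9%, for the E-box 6.5%, 11.5% and 7.2%, and for the ETS motif 25.8%, 24.0% and 9.1%, each for the members, the expressed genes and all genes. A match is a string of letters, and no binding was measured here.

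Polr2a had 201 and 219 scaled counts in the libraries labelled Chd4 shRNA and 113 and 88.4 in the scrambled ones. Both libraries labelled Chd4 shRNA lay well above all 6 others, and the log2 fold change was 1.06 ± 0.16 (SE, edgeR adjusted p = 1.5e-05). Polr2i, whose zinc-ribbon subunit helps the enzyme cut back and proofread its RNA, had 98.2 and 90.3 with Chd4 shRNA and 51.7 and 55.6 with the scrambled shRNA (0.81 ± 0.14, adjusted p = 5.1e-05). Polr2l, which encodes the small subunit RPB10 shared by the 3 polymerases, had 66.5 and 63.4 with Chd4 shRNA and 36.4 and 39.4 with the scrambled shRNA (0.78 ± 0.14, adjusted p = 9.7e-05). Polr2j encodes RPB11, which pairs with the product of Polr2c in the core from which the enzyme is assembled. It had 58.3 and 48.4 with Chd4 shRNA and 31 and 31.7 with the scrambled shRNA (0.77 ± 0.14, adjusted p = 1.4e-04). Polr2f had 155 and 146 with Chd4 shRNA and 96.4 and 98.1 with the scrambled shRNA (0.63 ± 0.16, adjusted p = 0.0023). The libraries of the labels did not overlap for these 5 genes, which was common here: both libraries labelled Chd4 shRNA lay above both scrambled ones for 15 of the 29 genes and 35.8% of all expressed genes, and below for 10 of the 29 and 37% of all. The calls of the 5 held whichever single library was left out. Polr2i overlaps Tbcb by 325 bases and Polr2j overlaps Lrwd1 by 176 bases, both on the opposite strand, and Tbcb (-0.33, adjusted p = 0.064) and Lrwd1 (-0.20, 0.29) did not pass. The kit kept strand, but the strand counted is not given in the sources used here, so reads of such neighbours cannot be told apart.

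The subunit genes that were lower include the partner of Polr2j and both genes of the stalk that carries RPB4 and RPB7. Their values in each library are given in full after being seen. Polr2c, the gene of RPB3, had 49.0 and 47.0 scaled counts in the libraries labelled Chd4 shRNA and 63.7 and 79.5 in the scrambled ones (-0.58 ± 0.14, edgeR adjusted p = 0.0025). Polr2h, a subunit shared by the 3 polymerases, had 30.3 and 31 with Chd4 shRNA and 44.7 and 48.6 with the scrambled shRNA (-0.61 ± 0.14, adjusted p = 0.0017). The libraries of both labels are separate for these genes. Polr2g, the gene of RPB7, had 75.9 and 63.6 with Chd4 shRNA and 90.8 and 99.7 with the scrambled shRNA (-0.45 ± 0.15, adjusted p = 0.017). Polr2d, the gene of RPB4, had 19.5 and 18.1 with Chd4 shRNA and 22.7 and 27.2 with the scrambled shRNA (-0.41 ± 0.16, adjusted p = 0.039). Polr2c shares 9708 bases with Dok4 (mean count 64.1) and Polr2h 82 bases with Clcn2 (198.8), both on the opposite strand and below the filter. The values of Polr2c, Polr2d, Polr2g and Polr2h are relative to other expressed genes, and on plain ERCC sums none of these genes was lower. In these bulk libraries, less RNA made per cell, fewer cells that make it and more RNA of other genes cannot be told apart. Without scrambled library r3 the calls of Polr2c (adjusted p = 0.068), Polr2d (0.30) and Polr2g (0.11) were lost, without Chd4 shRNA library r4 those of Polr2d (0.21) and Polr2g (0.21), and Polr2d was also lost without Chd4 shRNA r1 (0.12), BRM014 r1 (0.052) or BRM014 r2 (0.081). With the background subtracted, Polr2d (edgeR adjusted p = 0.23) and Polr2g (0.20) no longer passed, while Polr2c and Polr2h did. TMM factors were computed anew on the subtracted counts, so these moves include a change of scale. Background would make up only 1.80% and 2.30% of the Polr2g counts with Chd4 shRNA, and 0.21% and 0.26% with the scrambled shRNA. DESeq2 did not call Polr2d (adjusted p = 0.11).

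Polr2m encodes Gdown1, which binds Pol II tightly and competes with the initiation factor TFIIF. It had 30.3 and 32.1 scaled counts in the libraries labelled Chd4 shRNA and 47.5 and 55.6 in the scrambled ones, the lowest fold of the list (-0.72 ± 0.15, edgeR adjusted p = 4.2e-04). The call held without any single library. The 3 subunit genes not called were Polr2b (-0.05 ± 0.16, adjusted p = 0.84), Polr2e (-0.27 ± 0.14, 0.13) and Polr2k (0.21 ± 0.15, 0.30). Of the 5 subunits shared by the 3 polymerases, Polr2f and Polr2l were thus higher, Polr2h was lower, and Polr2e and Polr2k did not pass. With the background subtracted and the scale computed anew, Polr2k was called higher too. It gave 0.43 in the fit on the 17664 genes at least 3-fold above background (edgeR adjusted p = 0.036). Background would make up only 0.78% and 1.05% of its counts with Chd4 shRNA. Reads of Polr2k may be shared with its copy Polr2k-ps, which had a mean count of 2.12.

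**Figure D3:**
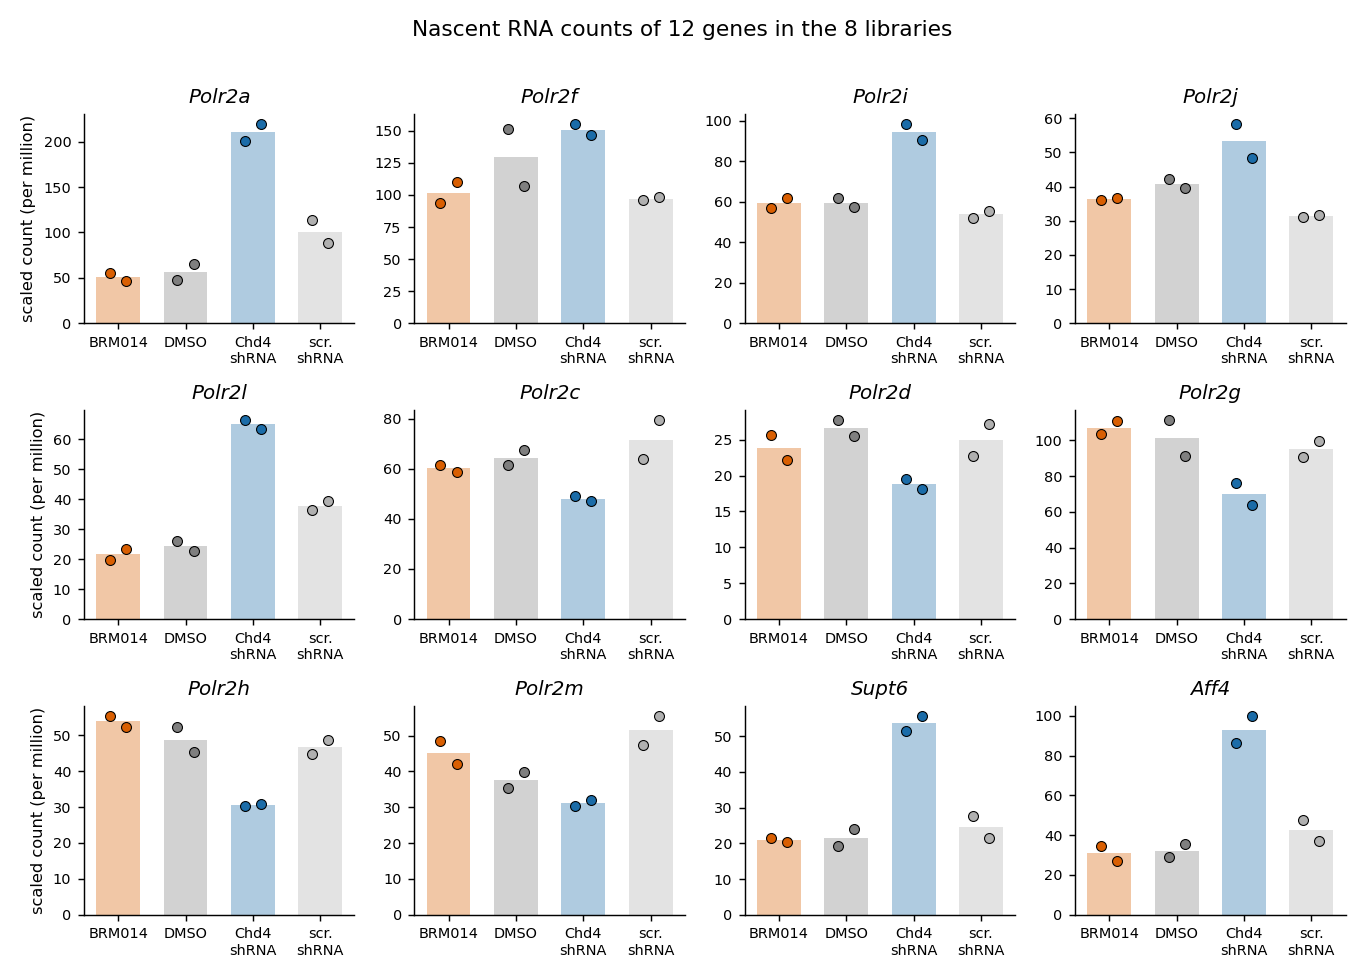
Scaled counts (CPM of the expressed genes) of 12 genes, with 1 point for each library and a bar for the mean of 2, in the order BRM014, DMSO, Chd4 shRNA and scrambled shRNA. Polr2a reaches 201 and 219 with Chd4 shRNA, while Polr2m is at 30.3 and 32.1 there, against 47.5 and 55.6 with the scrambled shRNA.

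Among the genes of Spt6 and DSIF, Supt6 and Supt5 were higher and Supt4a did not pass. Supt6, a histone chaperone that rides with the elongating enzyme, had 51.4 and 55.8 scaled counts in the libraries labelled Chd4 shRNA and 27.6 and 21.5 in the scrambled ones (1.13 ± 0.15, edgeR adjusted p = 4e-06). Supt5, the large DSIF subunit, had 50.6 and 59.0 with Chd4 shRNA and 46.1 and 37.6 with the scrambled shRNA (0.39 ± 0.15, adjusted p = 0.037). Both genes had higher values in both libraries labelled Chd4 shRNA, with a narrow gap for Supt5. The call of Supt5 was lost without Chd4 shRNA r4 (adjusted p = 0.30), scrambled r3 (0.32) or BRM014 r1 (0.051), and with DESeq2 (0.054). Supt4a, the small DSIF subunit, had -0.08 ± 0.15 (adjusted p = 0.69), and reads from its near copy Supt4b, which had a mean count of 33 of its own, may be shared with it. Supt6 overlaps Sdf2 on the opposite strand by 242 bases, and Sdf2 gave -0.13 (adjusted p = 0.56). Supt5 shares 3976 bases with Gm44709, which gave -0.22 (adjusted p = 0.58).

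No NELF gene was called, at 0 of 4 by edgeR (1 at an unadjusted p under 0.05, Nelfe) and 0 by DESeq2. Nelfe, the RNA-binding subunit and the highest of the 4 per kb, had 35.6 and 28.9 scaled counts in the libraries labelled Chd4 shRNA and 38.8 and 40.5 in the scrambled ones (-0.30 ± 0.14, adjusted p = 0.099). Nelfa gave -0.11 ± 0.15, Nelfb -0.08 ± 0.17 and Nelfcd 0.01 ± 0.15. With a filter at 3-fold above background, the median of expressed genes moved by -0.39. There all 4 NELF genes were called lower, Nelfcd at -0.37, where 22.8% of all genes tested were called lower.

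For P-TEFb and its regulators, Hexim1 and Ccnt2 were higher, and the kinase gene Cdk9 and Larp7 did not pass. Cdk9 had -0.28 ± 0.14 (edgeR adjusted p = 0.13). Hexim1 had 18.4 and 21.2 scaled counts in the libraries labelled Chd4 shRNA and 13.2 and 12.3 in the scrambled ones (0.63 ± 0.16, adjusted p = 0.0024). Ccnt2, one of the cyclin T genes, had 49.3 and 52.8 with Chd4 shRNA and 42.3 and 36.9 with the scrambled shRNA (0.37 ± 0.14, adjusted p = 0.045). For both genes the libraries of the labels did not overlap. Larp7 gave 0.30 ± 0.17 (adjusted p = 0.17). The call of Hexim1 was lost without Chd4 shRNA r4 (adjusted p = 0.054). That of Ccnt2 was lost without Chd4 shRNA r1 (0.091), Chd4 shRNA r4 (0.22), scrambled r3 (0.28) or BRM014 r1 (0.062), with DESeq2 (0.064) and with the background subtracted (0.27).

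All 3 tested genes of the super elongation complex were higher. They also belong to the 759 expressed genes with the longest spans, whose median change was 0.29 (log2), and the part of span was not tested. Aff4, the scaffold on which the complex is built, had 86.2 and 100.1 scaled counts in the libraries labelled Chd4 shRNA and 47.9 and 37.2 in the scrambled ones (1.13 ± 0.16, edgeR adjusted p = 6e-06). Ell, an elongation factor that keeps moving Pol II from stalling, had 22.6 and 24.5 with Chd4 shRNA and 13.0 and 12.1 with the scrambled shRNA (0.90 ± 0.15, adjusted p = 4.1e-05). Aff1, the other scaffold, had 70.4 and 73.2 with Chd4 shRNA and 54.0 and 41.4 with the scrambled shRNA (0.59 ± 0.15, adjusted p = 0.0026). The libraries of the labels were separate for these 3 genes, as for most expressed genes in this comparison. Only the call of Aff1 was lost on leaving out a library, scrambled r3 (adjusted p = 0.081). Background would make up 17% and 15.8% of the Aff4 counts with Chd4 shRNA and 4.24% and 7.57% with the scrambled shRNA. With it subtracted and the scale computed anew, in the fit on the 17664 genes at least 3-fold above background, the change was 1.19.

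Ccnk, which encodes the cyclin of CDK12 and CDK13, had 20.8 and 25 scaled counts in the libraries labelled Chd4 shRNA and 18.2 and 13.4 in the scrambled ones (0.53 ± 0.17, edgeR adjusted p = 0.015). It lost its call without Chd4 shRNA r4 (0.18) or scrambled r3 (0.24). Paf1, the name-giving PAF subunit, had 19.0 and 17.9 with Chd4 shRNA and 13.6 and 14.8 with the scrambled shRNA (0.38 ± 0.16, adjusted p = 0.070). It passed without BRM014 r2 and without either DMSO library. Most genes of these groups lay below the filter, and for them background matters more. In the libraries labelled Chd4 shRNA it would give between 16.6% and 55.5% of the counts of the 8 genes that did not pass, and between 4.74% and 16.1% in the scrambled ones.

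To cover these 8, the background per kb was subtracted from each library and the fit was run on the 17664 genes at least 3-fold above background, a choice made after the data were seen. TMM factors were computed anew from the subtracted counts of the expressed genes, so each value includes that change of scale. By edgeR, 23.6% of those genes were called higher and 11.7% lower, and of the 37 genes 19 were higher and 3 lower (Polr2c, Polr2h and Polr2m). Cdk12 had the largest value of the list, with 73.1 and 83.0 scaled counts in the libraries labelled Chd4 shRNA and 37.4 and 29.1 in the scrambled ones before subtraction (1.29 ± 0.17 after it, adjusted p = 5e-06). Its libraries were fully separate, and the related kinase gene Cdk13 gave 0.80 ± 0.18 (adjusted p = 0.0017). In PAF, Rtf1 (0.95 ± 0.23, adjusted p = 0.0027), Leo1 (0.93 ± 0.19, 6.3e-04) and Cdc73 (0.56 ± 0.18, 0.018; 13951 bases shared with B3galt2) were higher, while Ctr9 (0.08 ± 0.20, 0.77) and Paf1 (0.34 ± 0.20, 0.19) did not pass. Ccnt1, the main cyclin partner of CDK9, gave 0.64 ± 0.18 (adjusted p = 0.0075), and Ell2, the paralog of Ell, gave -0.13 ± 0.22 (0.67). Cdk9 stayed below 0 (-0.39 ± 0.17, adjusted p = 0.071). Without the subtraction, the same genes at 3-fold gave 13 of 37 higher and 13 lower, with 22.3% of all genes higher and 22.8% lower. In the BRM014 comparison the subtracted fit called 0 of the 37, and 3.29% of all genes.

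**Figure D4:**
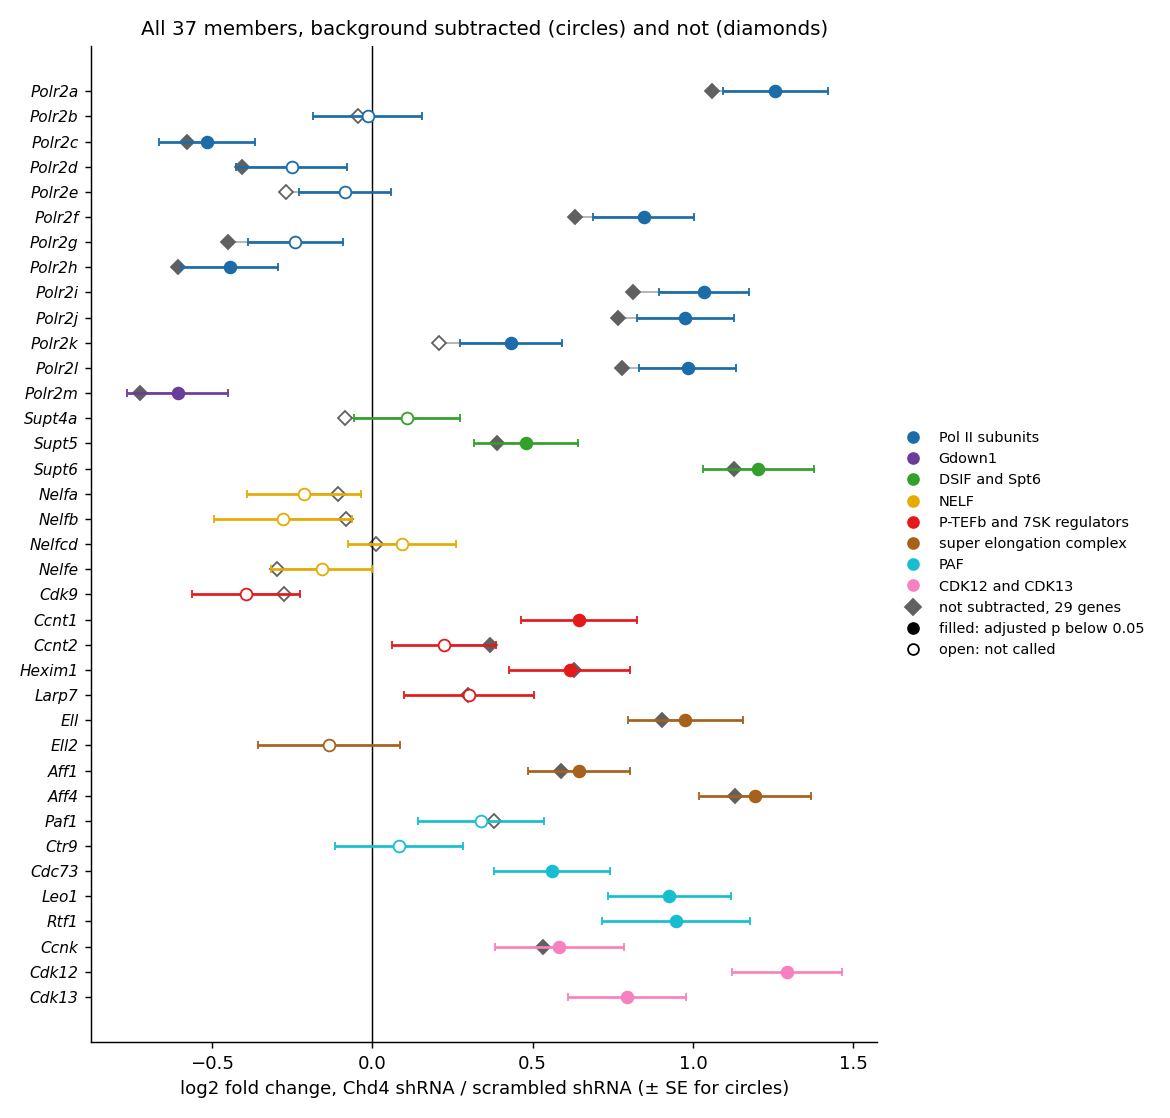
Log2 fold change of Chd4 shRNA over scrambled shRNA for all 37 genes, as coloured circles with SE bars after subtraction of background on genes at least 3-fold above it, and as grey diamonds for the 29 expressed genes without subtraction; filled symbols have an adjusted p under 0.05. Subtraction, with the scale computed anew, moves Polr2a to 1.26 and leaves Polr2c, Polr2h and Polr2m called below 0.

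The effect of Chd4 shRNA minus that of BRM014 was tested in the same edgeR fit. It was called for 12 of the 29 genes: 9 higher, where 15.4% of all expressed genes were called higher, and 3 lower, where 15.4% were called lower. Polr2a had the largest difference (1.21 ± 0.22, adjusted p = 2.6e-04), followed by Aff4 (1.20 ± 0.22), Supt6 (1.17 ± 0.21) and Ell (1.16 ± 0.20). Polr2m went the other way (-0.99 ± 0.20, adjusted p = 5.9e-04), and its scaled counts were 48.5 and 42.0 in BRM014 libraries, above the 35.3 and 39.9 of DMSO libraries. Its log2 fold changes were 0.26 and -0.72. Supt6 had 21.4 and 20.5 in BRM014 libraries and 19.1 and 24.0 in DMSO libraries. Aff4 had 34.5 and 27.2 in BRM014 libraries and 28.9 and 35.4 in DMSO libraries. BRM014 and DMSO libraries overlapped for both of these and were separate for Polr2m. The NELF genes had differences between -0.31 (Nelfe) and 0.17 (Nelfcd), none of them called. Hexim1, with a positive value in both comparisons, had a difference of 0.29 ± 0.20 (adjusted p = 0.31). The 2 perturbations also differ in duration, in the use of virus and in puromycin, which cannot be told apart from the target.

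**Figure D5:**
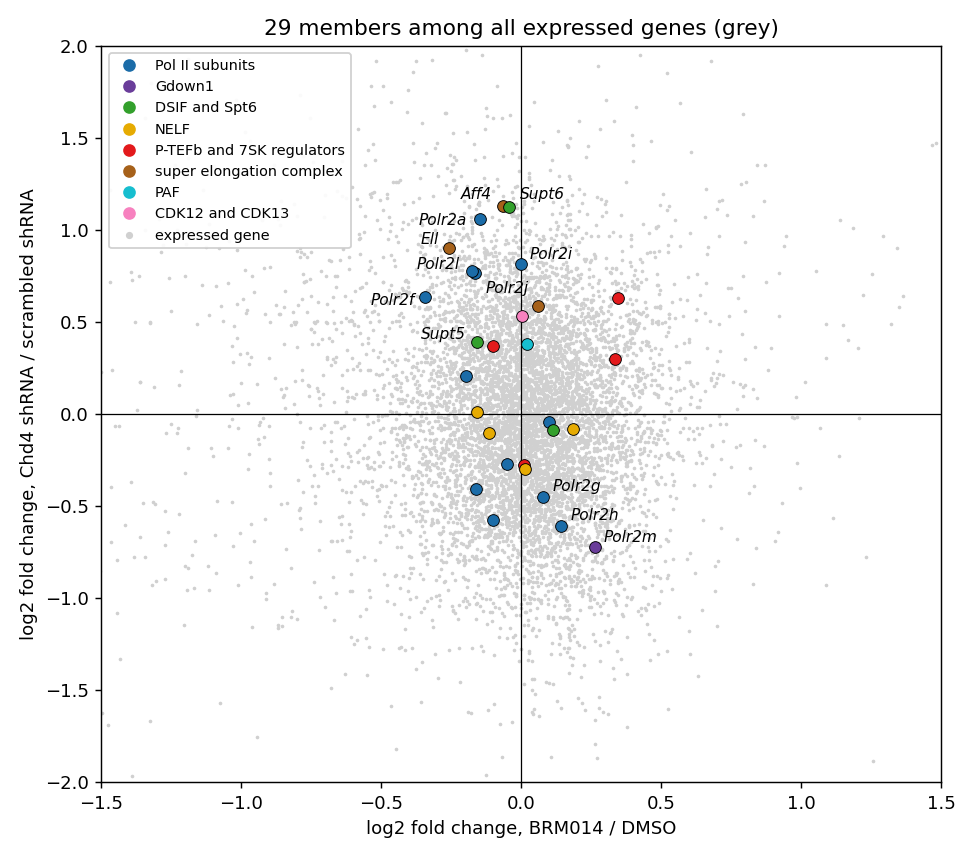
Log2 fold change of BRM014 over DMSO (x axis) and of Chd4 shRNA over scrambled shRNA (y axis) for the 29 genes, coloured by complex, and for all expressed genes in grey, 161 of which lie outside the axes. Named genes are the 12 with a called difference; they spread from -0.72 to 1.13 along the y axis and only from -0.34 to 0.26 along the x axis.

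A wider list of 58 genes for elongation, termination and Pol II assembly held 39 expressed genes. After BRM014, 5 of these passed edgeR's test, 2 higher and 3 lower, beside 7.75% of all expressed genes. Higher were Brd2, a BET protein that reads acetylated histones (0.60 ± 0.14, adjusted p = 0.0083), and Tcea1, the cleavage factor TFIIS (0.48 ± 0.14, 0.037). Among the lower ones were Ppp1r10, a targeting subunit of protein phosphatase 1 (-0.97 ± 0.14, 2.9e-05), and Ints5 of Integrator (-0.68 ± 0.14, 0.0022). The median of the 39 was 0.03. Without DMSO r2 the count was 11, and without BRM014 r1 or BRM014 r2 it was 2.

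In the libraries labelled Chd4 shRNA, 14 of the 39 passed, 10 higher and 4 lower, near the 39.9% called among all expressed genes. Among those with the smallest p by edgeR were Scaf4 (0.92 ± 0.16, adjusted p = 9.3e-05) and Scaf8 (0.77 ± 0.14), whose products bind the Pol II tail, the termination factor gene Pcf11 (0.76 ± 0.16), Ints13 (0.85 ± 0.15), the assembly factor gene Rpap3 (0.75 ± 0.19), and, lower, Wdr61 (-0.83 ± 0.14), which belongs to PAF, and Ssrp1 of FACT (-0.66 ± 0.14). Supt16, the partner of Ssrp1 in FACT, was higher (0.45 ± 0.15, adjusted p = 0.020), and Mepce, which caps 7SK RNA, was lower (-0.50 ± 0.17, 0.018). Both were named after their values were seen. The median of the 39 was -0.06. Without Chd4 shRNA r4 the count was 8.

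The genes whose log2 scaled counts ran most like those of Polr2a over the 8 libraries were Drosha (Pearson r = 0.9986), Nasp (0.9981), Ago2 (0.9975), Ptprf (0.9960) and Pkp4 (0.9954), among 8272 expressed genes. The 8 libraries fall into 4 groups, and differences between these groups weigh heavily in such values. Polr2a had 201 and 219 scaled counts with Chd4 shRNA and 113 and 88.4 with the scrambled shRNA. It had 54.8 and 47.1 with BRM014 and 47.9 and 64.9 with DMSO. Across the 29 genes, the log2 fold change of Chd4 shRNA over scrambled shRNA had a Spearman rho of 0.32 with the exon length of the gene, of 0.30 with its span and of -0.30 with its level per kb, against 0.06, 0.08 and -0.27 over 8044 expressed genes with coordinates. With these expressed genes split into classes by span, the median change (log2) was -0.03 in the shortest class (3320 genes). It was then -0.11 (2385), 0.09 (1580) and, for the longest spans, 0.29 (759). Ell (span 53402 bases), Aff4 (70998) and Aff1 (162949) fall in the longest class, and the part of span in their rises was not tested. These are descriptions across genes that share the same libraries.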

How the data were processed

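The deposited table holds raw counts per gene, made by the authors. Per the submitters' processing notes, the tools were Trim Galore 0.6.4, STAR 2.7.1a, featureCounts and edgeR 3.32.1, on mm10. The libraries came from a directional kit, per the labels' protocols, and synthetic ERCC RNAs had been added by cell number. The Chd4 shRNA and scrambled columns are numbered r1 and r4, and r1 and r3; r4 and r3 are in no sample title and are tied to their group only. The 40 ChIP samples are not analysed here.

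Background per kb of exon was taken from 1434 olfactory and vomeronasal receptor genes. Counts of the 8272 genes at least 10-fold above it were fitted over all 8 libraries with edgeR 4.0.16 (R 4.3.3, TMM, quasi-likelihood F test, Benjamini-Hochberg adjustment over all genes tested). SE is the size of the log2 fold change divided by the square root of F. An exact permutation test of 2 against 2 libraries cannot go below p = 0.333. The series design calls the replicates biological duplicates. No 2 libraries of a group agreed within counting noise. DESeq2 1.42.0, ERCC scaling, other filters, background subtraction and left-out libraries were alternatives. The fit was also run on simulated data with known changes. These had the same spread for every gene and library and no added background in any group. They therefore cannot show how the higher background or the unequal spread of the real libraries affects the calls.

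The members and gene lists were chosen with earlier results of these data known. Values in each library are given for Polr2a and the 4 other subunit genes called higher, and for the leading genes of each complex; those of Polr2c, Polr2d, Polr2g and Polr2h were chosen after being seen. Some genes of the wider list are counted but not reported by name here.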

Additional observations from a re-analysis of the deposited data

Results flagged for a closer look

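For 12 of the 29 expressed genes the effect of Chd4 shRNA over its control differed from that of BRM014 over its control, by edgeR's test of the difference itself (adjusted p under 0.05). The difference, as log2, was 1.21 for Polr2a, 0.98 for Polr2f, 0.82 for Polr2i, 0.93 for Polr2j and 0.95 for Polr2l, which are subunit genes, and 1.17 for Supt6, 1.16 for Ell and 1.20 for Aff4. For Polr2h it was -0.75 and for Polr2m -0.99. These 10 passed whichever single library was left out.

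The other 2 were close to the threshold. Supt5 had a difference of 0.55 (edgeR adjusted p = 0.043), which did not pass without BRM014 r1 (0.054), BRM014 r2 (0.18), Chd4 shRNA r1 (0.050), Chd4 shRNA r4 (0.20), DMSO r2 (0.088) or scrambled r3 (0.19). Polr2g had -0.53 (edgeR adjusted p = 0.049), which did not pass without any single library other than DMSO r1, with adjusted p between 0.064 and 0.24.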

How the results depend on the processing

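The scaling mattered most. With TMM over all genes that pass filterByExpr, the median of the expressed genes stood at -1.345 (log2, Chd4 shRNA over scrambled shRNA), and 30 of 37 members (difference of the effects: 25) and 52 other elongation genes (46) were called, with 63.9% (46%) of all genes. There the Chd4 shRNA values turned negative for Polr2a (-0.28), Polr2f (-0.70), Polr2i (-0.52), Polr2j (-0.57), Polr2k (-1.13), Polr2l (-0.56), Supt5 (-0.95), Supt6 (-0.21), Nelfcd (-1.32), Ccnt2 (-0.97), Hexim1 (-0.70), Larp7 (-1.035), Ell (-0.43), Aff1 (-0.75), Aff4 (-0.21), Paf1 (-0.95) and Ccnk (-0.80). The differences turned negative for Polr2a (-0.19), Polr2f (-0.41), Polr2i (-0.58), Polr2j (-0.46), Polr2k (-0.98), Polr2l (-0.44), Supt5 (-0.85), Supt6 (-0.23), Nelfa (-1.38), Nelfcd (-1.23), Ccnt2 (-0.93), Hexim1 (-1.11), Ell (-0.23), Aff1 (-0.87), Aff4 (-0.20), Paf1 (-1.04) and Ccnk (-0.87). That shift is larger than the reported change of each gene named. On plain ERCC sums Polr2c (0.025), Polr2d (0.19), Polr2g (0.14; difference 0.045) and Polr2h (0.0050) turned positive, and other elongation genes gave 0 calls for BRM014 and 7 for the difference. ERCC TMM on all genes called 6 of 37 members for Chd4 shRNA and 0 for the difference, fewer than the 61.4% and 35.7% of all genes called, and 0 (BRM014), 8 (Chd4 shRNA) and 1 (difference) of the other elongation genes; on expressed genes it called 0 of either list throughout by edgeR (0.762% of all for Chd4 shRNA). The cause was not tested.

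At 3-fold above background, 22 of 37 members passed for the difference (37.3% of all genes), and 29 (Chd4 shRNA) and 24 (difference) of the others; Nelfcd (-0.37) and Ccnt2 (-0.017) turned negative. At 30-fold, with fewer genes tested, 9 of 15 members passed for Chd4 shRNA (46.1% of all genes), and 1 (BRM014), 3 (Chd4 shRNA) and 4 (difference) of the others. With no filter the others gave 2, 32 and 26 in that order (0.79%, 62% and 44.1% of all genes). A log2 fold change of at least 1 left 3 members for Chd4 shRNA (7.35% of all genes) and 4 for the difference (11.2%), and 0, 1 and 3 of the others. Leaving out 1 library gave 0 to 3 members for BRM014, 11 to 19 for Chd4 shRNA (26.3% to 46.2% of all genes) and 10 to 16 for the difference, and 2 to 11, 8 to 21 and 7 to 19 of the others.

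With the replicate block, BRM014 called 0 members and 5 others. Deviations of same-numbered libraries had r = -0.157; the crossed pairing called 0 members and 8 others. No paired analysis was possible for the shRNAs because their columns share only 1 number.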
